A study of Mus musculus with 8 samples.

Results

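Cathepsins are proteases of the lysosome, and the 10 described here are Ctsa, Ctsb, Ctsc, Ctsd, Ctsf, Ctsh, Ctsk, Ctsl, Ctss and Ctsz. The set was chosen by family name, with the levels and fold changes of these same libraries in view, and read by symbol from a table of RNA-seq counts with 53921 rows that name a gene. Each symbol stood on 1 row, and all 10 passed the filter that left 15324 genes for testing. The cells were mouse induced cardiomyocytes, fibroblasts pushed towards a heart muscle identity by the reprogramming factors labelled MGT. The study asked, going by its title, how Grhl3, a Grainyhead-like transcription factor, bears on the matrix and on this change of cell fate. Both groups carried MGT and were collected on day 5: 2 libraries had the lentiviral hairpin shNT, taken as the control, and 2 had a hairpin against Grhl3 (shGrhl3). The labels call the cells Induced cardiomyocytes(Neo), and they give neither a mouse strain, an age, a genotype nor the origin of each replicate. P-values therefore rest on the spread between libraries alone, and that spread may be technical. CUT&Tag of H3K27ac, listed for 4 further samples, was not analysed here.

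Most cathepsins are papain-type cysteine proteases. They are made as inactive precursors, carried to the lysosome by receptors for mannose 6-phosphate or by sortilin, and cut to their active form in the acid lumen. Ctsd is an aspartic protease and Ctsa a serine carboxypeptidase, so the shared name covers several kinds of catalysis. Cystatins and some serpins inhibit cysteine cathepsins that leave the lysosome. In connective tissue secreted cathepsins can also cut collagen and elastin. Ctss is best known from macrophages and other antigen-presenting cells, while Ctsb, Ctsd and Ctsl are found in nearly all cell types.

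Ctss and Ctsk lie next to each other in the mouse genome, and their levels differed between the groups in opposite directions. On chromosome 3 of mm10, Ctsk spans 95499210 to 95509387 and Ctss spans 95526786 to 95556405, which leaves 17.4 kb between them. The windows from 250 bases before to 50 bases after the start site are shown for this pair, and for Ctsa and Ctsd, whose levels did not pass the test. They come from RefSeq on GRCm38.p6, the assembly behind mm10, and are written 5′ to 3′ on the gene's own strand. Capitals mark GAGGAA or its reverse complement TTCCTC, the core bound by the macrophage factor PU.1, and CACGTG, the core bound by the lysosomal regulators TFEB, TFE3 and MITF.
Ctss, chr3:95526536-95526835, plus strand: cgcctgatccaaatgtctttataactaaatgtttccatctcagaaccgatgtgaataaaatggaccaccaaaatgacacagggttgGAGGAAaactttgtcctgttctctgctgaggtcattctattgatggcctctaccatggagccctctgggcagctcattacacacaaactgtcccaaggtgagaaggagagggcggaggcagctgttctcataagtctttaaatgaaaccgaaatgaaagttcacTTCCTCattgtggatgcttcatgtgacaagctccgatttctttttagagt
Ctsk, chr3:95498960-95499259, plus strand: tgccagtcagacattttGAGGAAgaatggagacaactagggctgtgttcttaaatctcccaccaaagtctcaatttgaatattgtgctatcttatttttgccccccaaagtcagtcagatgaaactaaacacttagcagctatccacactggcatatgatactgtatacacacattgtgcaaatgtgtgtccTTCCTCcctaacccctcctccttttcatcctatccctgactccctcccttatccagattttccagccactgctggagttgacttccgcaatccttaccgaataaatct
Ctsa, chr2:164833523-164833822, plus strand: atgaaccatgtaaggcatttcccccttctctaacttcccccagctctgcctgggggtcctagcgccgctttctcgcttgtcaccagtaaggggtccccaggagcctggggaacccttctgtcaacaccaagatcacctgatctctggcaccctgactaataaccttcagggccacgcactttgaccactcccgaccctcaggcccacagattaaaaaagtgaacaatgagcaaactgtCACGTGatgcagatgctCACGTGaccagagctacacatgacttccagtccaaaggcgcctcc
Ctsd, chr7:142387778-142388077, minus strand: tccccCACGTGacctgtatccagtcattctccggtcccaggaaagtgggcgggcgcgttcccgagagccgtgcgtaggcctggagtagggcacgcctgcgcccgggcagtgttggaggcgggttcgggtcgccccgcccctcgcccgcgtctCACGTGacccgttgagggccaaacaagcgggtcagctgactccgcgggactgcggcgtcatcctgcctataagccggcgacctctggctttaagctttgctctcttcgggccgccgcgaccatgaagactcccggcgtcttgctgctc

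Of the 10 genes, 8 had at least 1 window in the RefSeq table, and Ctsb and Ctsh had none. Both strands were searched. CACGTG stood in a window of 4 of these 8 genes, Ctsa, Ctsd, Ctsf and Ctsl, against 7.15% of all 32851 windows of this length. The longer palindrome TCACGTGA, which contains CACGTG, stood in 2 of the 8, Ctsa and Ctsd, against 0.974% of all windows. GAGGAA stood in 3 of the 8, Ctsc, Ctsk and Ctss, against 28.3% of all windows. AACCNGTT, the core of Grainyhead-like sites, stood in none of the 8 and in 2.09% of all windows. The table has 2 windows for Ctsa: the one shown starts inside the gene's span, and the one at the start of the span, 164832622 to 164832921, holds no CACGTG. These matches describe the letters in the windows, and binding was not measured.

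Library depth ranged from 16102839 to 19822541 counts in rows that name a gene. Levels are given as CPM, the usual count scaled to library size, with library sizes adjusted by TMM, a trimmed mean of ratios between libraries. The counts of Grhl3 itself were 31 and 14 with shNT and 11 and 19 with shGrhl3, so its libraries overlapped and a fall in its mRNA was not detected (log2 fold change -0.72, 95% interval -1.81 to 0.37). With 1 library left out the log2 fold change was -0.19 (shNT replicate 1), -1.06 (shNT replicate 2), -0.33 (shGrhl3 replicate 1) or -1.20 (shGrhl3 replicate 2). With all libraries it did not pass. The columns read as shGrhl3 are headed shGrhl1 and shGrhl2, and the digit was read as the replicate number because no target other than Grhl3 appears in the labels. Over all genes tested the median log2 fold change was -0.0094. Of these genes 17.2% were called higher and 18.1% lower at an adjusted p under 0.05. Of 14 cardiomyocyte markers 6 rose and 1 fell. Myh6 rose from 20.6 ± 0.284 to 251 ± 14 CPM and Tnni3 from 8.49 ± 0.551 to 50.9 ± 0.974 CPM. Mybpc3 and Actc1 rose with log2 fold changes of 1.12 and 0.97. The induced marker Tnnt2 did not pass, at 3214 ± 112 CPM with shNT and 3208 ± 146 CPM with shGrhl3 (SD, n = 2). Of 14 fibroblast markers 3 rose, among them Col1a1, and 7 fell, among them Pdgfra, Tcf21 and Dcn. Of 9 endothelial markers 2 fell, Tek and Cldn5, and of 9 smooth muscle and pericyte markers 2 rose, Notch3 and Cspg4, and 2 fell, Tagln and Cnn1. Cldn5 had 21 and 44 counts in shNT and 2 and 17 in shGrhl3. Fap, among the fibroblast markers that fell, had 41 and 10 counts in shNT and 10 and 6 in shGrhl3. Both genes reached the test through the shNT libraries, where they are high.

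Ctss was much lower with the Grhl3 hairpin, Ctsb and Ctsc were moderately lower, and Ctsk was modestly higher, while the other 6 cathepsins did not pass the threshold. The fit was edgeR's quasi-likelihood test across all 15324 genes, with a threshold of 0.05 on the adjusted p. By that threshold 1 of the 10 was higher and 3 were lower, beside 17.2% of all genes called higher and 18.1% called lower, or 35.3% in either direction. The family was listed with this contrast already known, so these counts and fold changes describe the libraries, no p is given for single members, and nothing is read from the count. The median log2 fold change of the 10 was -0.044. Their groups did not overlap for 6 of the 10, against 66.5% of all genes tested.

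**Figure D1:**
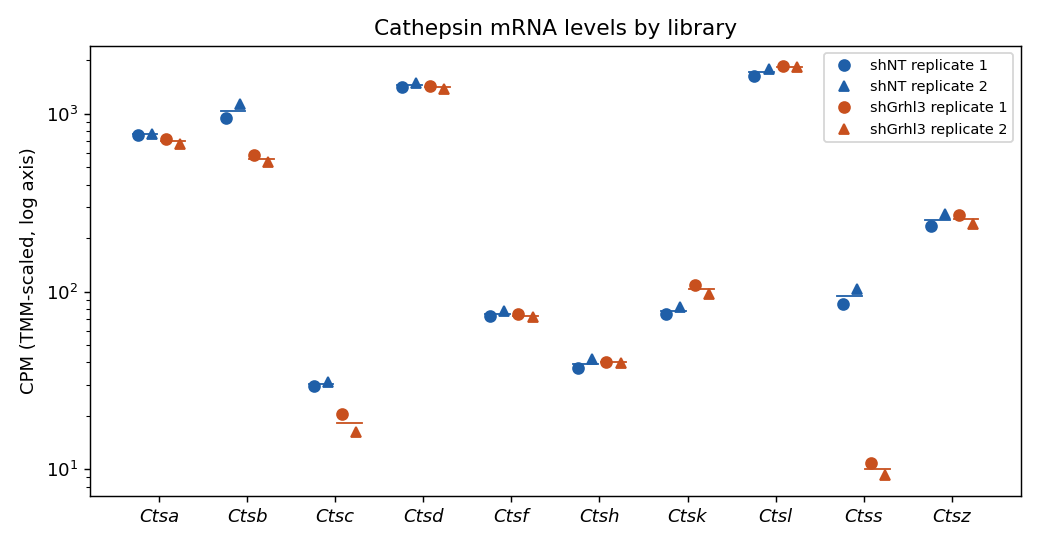
Level of each of the 10 cathepsins in each library, in CPM on a log axis, in alphabetical order. Blue marks are shNT, orange marks shGrhl3, circles replicate 1, triangles replicate 2, and short lines the group means. Ctss drops from 85.4 and 104 CPM to 10.9 and 9.26 CPM, while Ctsd, Ctsf, Ctsh and Ctsz overlap between groups.

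Ctss, a cysteine endopeptidase that trims the invariant chain of MHC class II molecules and stays active at neutral pH, had counts of 1635 and 1651 with shNT. With shGrhl3 its counts were 218 and 173. In CPM these were 85.4 and 104 against 10.9 and 9.26. Both shNT libraries lay far above both shGrhl3 libraries, and the gap between groups exceeded the spread within either. The means, each over n = 2 libraries, were 94.7 ± 13.1 CPM (SD) with shNT and 10.1 ± 1.14 CPM with shGrhl3, a log2 fold change of -3.23 (SE 0.13, 95% interval -3.50 to -2.96). Only 0.274% of the genes tested had a lower fold change. In these bulk samples fewer cells of a type and less RNA per cell cannot be told apart.

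Macrophage markers moved with Ctss. The list held 20 markers without Ctss. Among the 14 that were tested 11 fell, 1 rose and 2 stayed short of the threshold. Of all genes tested 18.1% were called lower and 17.2% higher. The median log2 fold change of the 14 was -2.55. The 11 that fell ranged from -3.36 to -1.53, with 9 of them within 1 log2 unit of Ctss. Itgam and Fcer1g belong to the 11 and to the 9, but passed the filter only because of their shNT levels. Under the Grhl3 hairpin their reads numbered 8 and 7 for Itgam, and 3 and 12 for Fcer1g. Such genes are kept for being high with shNT, so their falls carry less weight. The summed level of the list was 609 and 849 CPM in the shNT libraries and 149 and 119 CPM in the shGrhl3 libraries. Lyz2, a myeloid lysozyme, made up most of each sum, and without it the list summed to 154.6 and 203.5 CPM against 47.4 and 42.9 CPM. Cybb, the catalytic subunit of the phagocyte oxidase, fell from 16.3 ± 2.27 to 1.58 ± 0.189 CPM (adjusted p = 1.62e-10). Mpeg1, a pore-forming protein of macrophages, fell from 72.9 ± 17.7 to 7.69 ± 0.0534 CPM (adjusted p = 2.49e-10). Cd68, a macrophage lysosomal membrane protein, fell from 33.7 ± 6.73 to 6.05 ± 0.537 CPM (adjusted p = 1.09e-10). Laptm5, a lysosomal protein of blood cells, fell from 14.7 ± 3.38 to 2.65 ± 0.196 CPM (SD, n = 2 for each; adjusted p = 1.49e-08).

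The single riser of that list was Csf1r, the receptor of macrophage growth factor, which went from 7.26 and 7.24 CPM to 18.6 and 17.1 CPM (log2 fold change 1.30, adjusted p = 1.25e-06). Spi1, which encodes PU.1, was low, at 1.05 and 2.33 CPM in shNT against 1.55 and 0.321 CPM in shGrhl3. Its groups overlapped, and it did not pass (log2 fold change -0.77, adjusted p = 0.320). Mrc1, a mannose receptor, was the other marker that did not pass. The 6 untested markers, Aif1, C1qa, C1qb, C1qc, Cx3cr1 and Fcgr1, never exceeded 11 counts, and C1qb and C1qc were at 0 in both shGrhl3 libraries. The part of macrophage RNA in the Ctss result was not tested.

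**Figure D2:**
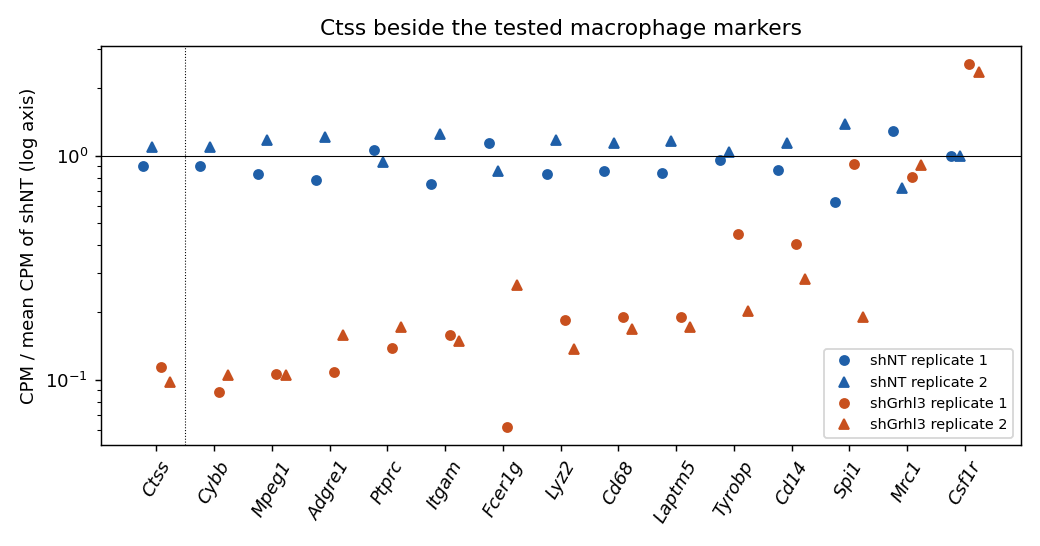
Ctss, left of the dotted line, and the 14 tested macrophage markers ordered by fold change, each as the CPM of a library divided by the mean CPM of shNT, on a log axis. Blue is shNT, orange shGrhl3, circles replicate 1 and triangles replicate 2. Cybb and Mpeg1 sit at the level of Ctss in the shGrhl3 libraries, Spi1 and Mrc1 overlap between groups, and Csf1r lies above 1.

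The genes whose levels across the 4 libraries ran closest to those of Ctss were sought among 8391 genes with a mean of at least 4 on the log2 CPM scale. Likeness was the Euclidean distance between log2 CPM values centred on each gene's mean, so a gene that follows Ctss exactly has a distance of 0. Mpeg1 was nearest at 0.213, followed by Lyz2 at 0.590, and Spp1, which encodes osteopontin, at 0.720. Lars2 at 1.13 and Eif5a2 at 1.26 came next. The gap between the groups enters this distance, so genes with a fold change near that of Ctss tend to lie near it by construction. The floor on the mean left out less abundant macrophage markers such as Cybb and Cd68, so the order holds only among genes above it. Lyz2 had 454 and 645 CPM in shNT and 102 and 75.7 CPM in shGrhl3. Spp1 had 37.8 and 81.9 CPM in shNT and 6.04 and 3.59 CPM in shGrhl3, and with that spread it did not pass the test (adjusted p = 0.0743), nor did Lars2 (adjusted p = 0.0941).

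Apart from H2-DMa, the listed partners of Ctss in antigen presentation were scarcely expressed in either group. Cd74, the invariant chain that Ctss cuts, had 3 and 8 counts in shNT and 5 and 6 in shGrhl3, too few to test. Of 9 listed genes of MHC class II, 3 were tested and 0 passed in edgeR's test, DESeq2 or limma-voom. The unadjusted edgeR p was 0.829 for H2-Eb1, 0.284 for H2-DMa, 0.121 for H2-DMb1. H2-DMa, a chain of the peptide loading factor, stood at 8.31 and 9.38 CPM in shNT and 10.2 and 9.96 CPM in shGrhl3 (adjusted p = 0.429). H2-Aa, H2-Oa and H2-Ob were at 0 counts in all 4 libraries.

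Ctsk, the collagen-cutting endopeptidase best known from osteoclasts, was the only one of the 10 past the threshold as higher. It had 1434 and 1295 counts in shNT and 2176 and 1816 in shGrhl3, or 74.9 and 81.55 CPM against 108.5 and 97.2 CPM. The groups did not overlap, and the gap between the nearest libraries was somewhat wider than the difference within either group. This gave 0.40 as log2 fold change (SE 0.09, 95% interval 0.20 to 0.59). Without shNT replicate 1 it was 0.33 and missed the threshold. Its neighbour on the other side, Arnt, a partner of bHLH-PAS factors that ends 1.97 kb before Ctsk, fell from 86.9 and 88.4 CPM to 62.2 and 64.9 CPM (log2 fold change -0.46, adjusted p = 0.000406). Hormad1, the gene after Ctss, was at 0 counts in all libraries.

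Osteoclast markers did not rise with Ctsk. Of 8 listed, 3 were tested, 0 rose and 2 fell, beside 17.2% of all genes called higher and 18.1% called lower. Atp6v0d2, a proton pump subunit of osteoclasts and macrophages, fell from 9.88 and 14.8 CPM to 3.49 and 3.59 CPM (adjusted p = 1.80e-06). Tnfrsf11a, the RANK receptor, had 11 and 10 counts in shNT and 0 in both shGrhl3 libraries. It reached the test through the shNT libraries alone, and under a filter of a mean of at least 1 CPM, which it misses, the list had 1 call. Acp5, the tartrate-resistant phosphatase, stood at 5.70 and 4.66 CPM against 5.29 and 6.26 CPM and did not pass (adjusted p = 0.674). Dcstamp and Calcr were at 0 in all 4 libraries.

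Ctsb, which cleaves as an endopeptidase and also removes dipeptides from the C-terminus, lies on chromosome 14, 63122462 to 63145923. It had 18255 and 17979 counts in shNT and 11744 and 10011 in shGrhl3. In CPM these were 954 and 1132 against 586 and 536. Both shGrhl3 libraries lay below both shNT libraries by more than the groups' own spread, at a log2 fold change of -0.90 (SE 0.09, 95% interval -1.07 to -0.71).

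Ctsc, dipeptidyl peptidase I, which activates granule proteases of blood cells, lies on chromosome 7, 88278024 to 88315861. It had 560 and 495 counts in shNT and 408 and 303 in shGrhl3. In CPM these were 29.3 and 31.2 against 20.4 and 16.2. The groups did not overlap, at a log2 fold change of -0.72 (SE 0.13, 95% interval -0.99 to -0.45). The intervals of Ctsb and Ctsc overlap each other and lie wholly apart from that of Ctss. The part of macrophage RNA in the lower Ctsb and Ctsc was not tested; the summed macrophage markers were lower in the same libraries, as given above.

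**Figure D3:**
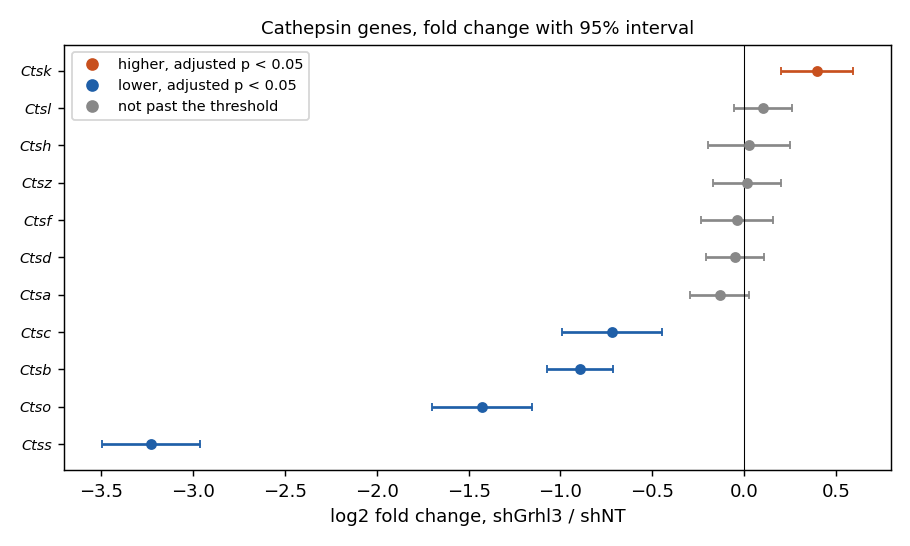
Log2 fold change of shGrhl3 against shNT with its 95% interval for the 10 cathepsins and for Ctso, from edgeR's quasi-likelihood fit. Blue is lower, orange higher and grey not past the threshold. Ctsa, Ctsd, Ctsf, Ctsh, Ctsl and Ctsz have intervals that include 0, and Ctss stands apart at -3.23.

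The lysosomal endopeptidases Ctsl and Ctsd, which degrade the bulk of delivered protein, did not pass. Ctsl (chromosome 13, 64361890 to 64370772) had 1643 and 1798 CPM in shNT and 1851 and 1846 CPM in shGrhl3. Both shGrhl3 libraries lay above both shNT libraries, but by less than the spread within shNT, and the interval of the log2 fold change was -0.055 to 0.26. Ctsd (chromosome 7, 142375910 to 142387827) had 1425 and 1495 CPM against 1438 and 1384 CPM, so the groups overlapped (interval -0.21 to 0.11). Ctsf, an endopeptidase with a long cystatin-like propeptide (chromosome 19, 4855165 to 4860918), had 72.6 and 77.8 CPM against 74.5 and 71.8 CPM. Its libraries overlapped as well (interval -0.24 to 0.16). For these 3 genes a change beyond 0.26 on the log2 scale in either direction lies outside the intervals.

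Ctsh, Ctsz and Ctsa, which cut residues from the ends of chains, did not pass either. Ctsh, an aminopeptidase (chromosome 9, 90054267 to 90076095), had 37.1 and 41.6 CPM in shNT and 40.25 and 39.7 CPM in shGrhl3 (interval -0.20 to 0.25). Ctsz, a carboxypeptidase also called cathepsin X (chromosome 2, 174427494 to 174439039), had 235 and 272.5 CPM against 271 and 241 CPM (interval -0.17 to 0.20). In both genes the shGrhl3 libraries lay between the shNT libraries. Ctsa, which also shields lysosomal galactosidase and neuraminidase from breakdown (chromosome 2, 164832872 to 164841032), had 764 and 770.5 CPM against 719 and 681 CPM. Its shGrhl3 libraries were both lower, with a log2 fold change of -0.13 (interval -0.29 to 0.027). The span of Ctss holds a pseudogene, Hmgb1-ps5, with 1 count in each shNT library and 0 with shGrhl3. The span of Ctsa overlaps Pltp and Neurl2, that of Ctsb overlaps Fdft1, and that of Ctsz overlaps Nelfcd. Whether the counting used strand is not given in the labels, so shared reads of these pairs cannot be told apart.

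The make-up of the family shifted with these changes. Ctss took 1.61% (95% Wilson interval 1.53 to 1.68) and 1.79% (1.71 to 1.88) of the counts of the 10 genes in the shNT libraries. In the shGrhl3 libraries it took 0.212% (0.186 to 0.242) and 0.188% (0.162 to 0.218). The share of Ctsb was 17.9% (17.7 to 18.2) and 19.5% (19.3 to 19.8) in shNT. It was 11.4% (11.2 to 11.6) and 10.9% (10.7 to 11.1) in shGrhl3. The share of Ctsl was 30.9% (30.6 to 31.2) and 31.0% (30.7 to 31.3) in shNT, and 36.2% (35.9 to 36.5) and 37.5% (37.2 to 37.8) in shGrhl3. Intervals cover counting error only. Because the shares come from a common sum, a lower share of Ctsb raises those of the other genes. The level of Ctsl itself did not pass. The shares are of counts and not per length, so they compare libraries and not the abundance of one cathepsin with another. The summed level of the other 9 without Ctss was 5235 and 5700 CPM in shNT and 5108 and 4913 CPM in shGrhl3.

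All 10 cathepsins shared an ordering within the groups. Each was higher in shNT replicate 2 than in replicate 1, which held for 50.7% of all genes tested. Each was lower in shGrhl3 replicate 2 than in replicate 1, which held for 49.9% of all genes. Both together held for 27.9% of all genes. The steps were small, with a median of 0.13 on the log2 scale between the shNT libraries and -0.10 between the shGrhl3 libraries, where the medians of all genes were 0.0039 and 0.00031. Ctss had steps of 0.28 and -0.23, Ctsb of 0.25 and -0.13, and Ctsl of 0.13 and -0.0036. Ctsh had a step of -0.019 between the shGrhl3 libraries and Ctsa of 0.011 between the shNT libraries. For such genes the order rests on differences near 0. The 10 genes were read from the same libraries, so they are not separate evidence of a difference between libraries. The summed macrophage markers had the same ordering, with and without Lyz2, and 10 of the 14 tested markers were higher in shNT replicate 2 and 9 lower in shGrhl3 replicate 2. These are differences between single libraries, with no test.

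Of 16 further genes with a cathepsin name or a related fold, 8 were at 0 counts in all libraries and 3 were tested. Ctso, a broadly expressed cysteine cathepsin that is not among the 10, had 764 and 531 counts in shNT and 264 and 265 in shGrhl3. It fell from 39.9 and 33.4 CPM to 13.2 and 14.2 CPM with groups far apart, a log2 fold change of -1.43 (SE 0.13; adjusted p = 1.29e-08). Its order within the shNT pair was the reverse of that of the 10, with the higher level in replicate 1. Tinagl1, a secreted matrix protein with an inactive cathepsin-like fold, rose from 242 and 262 CPM to 557 and 532 CPM (log2 fold change 1.11, adjusted p = 3.10e-10). Blmh, bleomycin hydrolase, did not pass (adjusted p = 0.888).

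The remaining cathepsin names were at the edge of detection. Ctsw, a cathepsin of cytotoxic lymphocytes, had 7 and 1 counts in shNT and 18 and 8 in shGrhl3. Ctsj and Ctsq, known from the placenta, had 5 and 2 counts in shNT replicate 1 and 0 elsewhere. Ctse, an aspartic protease, and Ctsg, a neutrophil serine protease, had 1 count each in a single library. At these depths 0 counts allow up to 3 counts in a library.

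Among the inhibitors of cathepsins, 8 of 17 listed genes were tested, of which 1 rose and 2 fell. Of all genes tested 17.2% were called higher and 18.1% lower. Cst3, the secreted inhibitor cystatin C, fell from 1576 and 1637 CPM to 1244 and 1058 CPM (log2 fold change -0.48, adjusted p = 7.09e-05). Serpina3g, an intracellular serpin of blood cells, fell from 12.2 ± 3.18 to 7.20 ± 0.334 CPM (adjusted p = 0.00473). Serpinb1a, which inhibits neutrophil proteases including cathepsin G, rose from 25.3 and 26.6 CPM to 58.5 and 41.65 CPM (adjusted p = 3.48e-05). The intracellular inhibitor Cstb stood at 133 and 114 CPM against 139.7 and 137 CPM and did not pass (adjusted p = 0.189). The list had a median log2 fold change of 0.091, against -0.0094 over all genes tested.

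Genes that activate cathepsins or carry them to the lysosome were called in both directions. All 11 were tested, and 3 rose while 3 fell, with a median log2 fold change of -0.018. Of all genes tested 17.2% were called higher and 18.1% lower, and nothing is read from this count. Lgmn, legumain, which cuts several cysteine cathepsins into a heavy and a light chain, rose from 137 and 147 CPM to 242 and 246 CPM (log2 fold change 0.78, adjusted p = 1.15e-07). Sort1, the sorting receptor sortilin, fell from 251 and 225 CPM to 98.5 and 101 CPM (log2 fold change -1.25, adjusted p = 1.62e-10). Psap, prosaposin, a sphingolipid activator precursor that can bind pro-cathepsin D, fell from 1082 and 1162 CPM to 506 and 456 CPM (log2 fold change -1.22, adjusted p = 8.66e-11). In all 3 genes the groups stood apart by several times their spread.

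The larger mannose 6-phosphate receptor Igf2r fell from 432 and 445.5 CPM to 231 and 280.4 CPM (log2 fold change -0.78, adjusted p = 3.87e-07). The smaller receptor M6pr had 273 and 286 CPM against 267 and 247.5 CPM and did not pass (adjusted p = 0.279). Gnptab, which starts the making of the mannose 6-phosphate tag, did not pass either (interval -0.22 to 0.19, adjusted p = 0.914). The remaining risers were Nagpa, which uncovers that tag, and Neu1, the neuraminidase that binds Ctsa, with log2 fold changes of 0.49 and 0.51. Macrophage markers were lower in the same libraries, and their part in the changes of these genes was not tested.

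**Figure D4:**
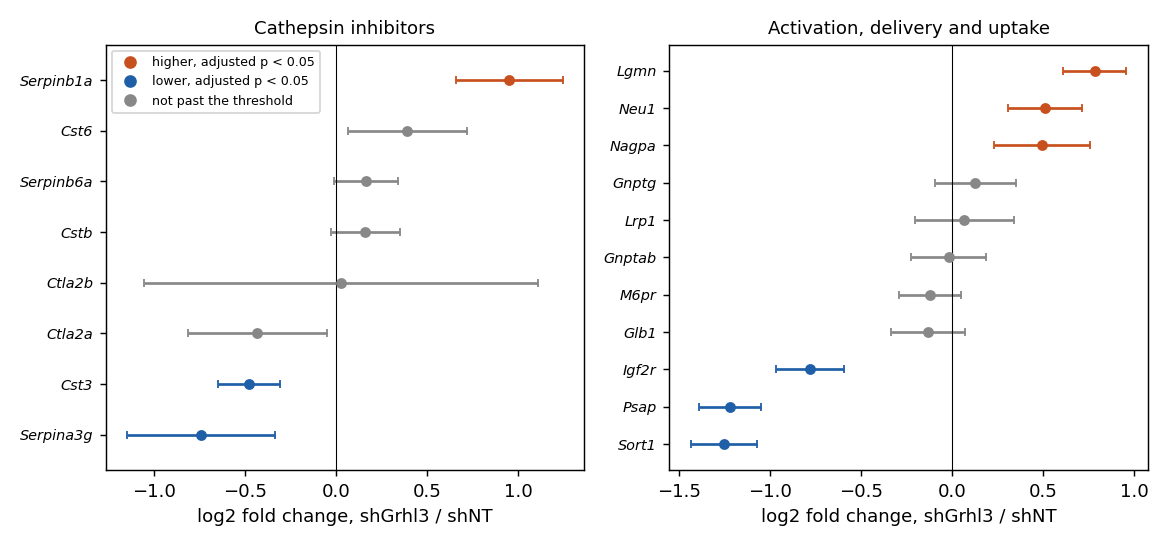
Log2 fold change of shGrhl3 against shNT with its 95% interval for the 8 tested cathepsin inhibitors (left) and the 11 genes of activation, delivery and uptake (right). Blue is lower, orange higher and grey not past an adjusted p of 0.05. Cst3 and Serpina3g are lower on the left, and Igf2r, Psap and Sort1 on the right.

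Other lysosomal genes were called in both directions. Of 25 other lysosomal hydrolases and membrane proteins, all tested, 7 fell and 5 rose, with a median log2 fold change of -0.072. Of all genes tested 18.1% were called lower and 17.2% higher, and nothing is read from this count. Lipa, the acid lipase, fell from 148 ± 4.83 to 91.5 ± 2.86 CPM, and Lamp2, a membrane protein of the lysosome, from 1044 ± 92.5 to 668 ± 10.6 CPM (adjusted p = 1.26e-06 and 1.16e-06). Scarb2, which carries glucocerebrosidase to the lysosome, fell from 652 ± 1.63 to 434 ± 2.23 CPM (adjusted p = 2.41e-06). Galns, a sulfatase that degrades keratan sulfate, rose from 19.3 ± 0.606 to 38.4 ± 1.88 CPM (SD, n = 2 for each; adjusted p = 6.63e-07).

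The regulators of lysosomal genes did not pass. Of the 4 MiT/TFE factors, 0 passed in edgeR's test, DESeq2 or limma-voom. The unadjusted edgeR p was 0.0202 for Tfeb, 0.0584 for Tfe3, 0.562 for Mitf, 0.0342 for Tfec. Tfeb had 5.96 and 8.50 CPM in shNT and 10.3 and 9.80 CPM in shGrhl3, with no overlap (log2 fold change 0.49, adjusted p = 0.0556). Tfe3 had 46.6 and 51.3 CPM against 45.8 and 37.9 CPM (adjusted p = 0.129). Mitf and Tfec had log2 fold changes of 0.093 and -0.56.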

How the data were processed

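RNA-seq was read from 1 table of raw counts per gene that the authors deposited, with a column for each of 4 libraries. The submitters' processing notes list cutadapt 1.9.1, HISAT2 2.0.1, Bowtie2 2.2.6, MACS2, ChIPseeker and mm10, with no role for each. For the counting program, the annotation and multiply mapped reads nothing is given in the labels. Of 55359 rows, 1438 named no gene, held at most 0.00872% of a library's counts and were left out.

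Genes were filtered with filterByExpr (minimum count 10), scaled by TMM and fitted with edgeR 4.0.16 in R 4.3.3 (robust quasi-likelihood, shGrhl3 against shNT, no covariate). Tests were two-sided and adjusted by Benjamini-Hochberg over all genes tested. SEs were derived from the F statistic. The fit was tested on simulated data. The members and lists were chosen with earlier results of these data known. Named genes were the 10 members, other cathepsin names, Grhl3, Cd74, Spi1 and, from each list, at most 4 genes of lowest p past the threshold. Csf1r, Mrc1, Nagpa, Neu1, Acp5, Tinagl1, Arnt, genes named for a low count and other values given for genes that did not pass were chosen after their values were seen. Levels were not compared between genes because transcript lengths were not used here.

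Replicate libraries differed beyond sampling noise, with a chi-square per degree of freedom of 14.1 for shNT and 8.66 for shGrhl3. Alternatives were other scalings, filters and tests (DESeq2 1.42.0, limma 3.58.1), a replicate block and leaving out each library.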

Additional observations from a re-analysis of the deposited data

How the results depend on the processing

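The calls of Ctss, Ctsb and Ctsc as lower, and the lack of a call for the other members except Ctsk, held under all 11 alternatives. Ctsk missed the threshold without shNT replicate 1 (log2 fold change 0.33), so the count of higher members ran from 0 to 1 with a library left out, and passed under the other 10. Leave-one-out log2 fold changes ran from -3.37 to -3.08 for Ctss, -0.092 to 0.011 for Ctsf, -0.058 to 0.11 for Ctsh and -0.093 to 0.13 for Ctsz; the last 3 changed sign (Ctsf 0.011 without shNT replicate 2 and 0.0060 without shGrhl3 replicate 2, Ctsh -0.058 without shNT replicate 1, Ctsz -0.093 without shNT replicate 1 and -0.072 without shGrhl3 replicate 1). With a library left out, the counts of passing genes ran from 2 to 5 for inhibitors, 0 to 2 for MiT/TFE factors, 0 to 1 for MHC class II genes, 1 to 2 for osteoclast markers, 1 to 3 for endothelial markers and 2 to 5 for smooth muscle and pericyte markers. Scaling by library size only gave 1 MiT/TFE factor, a mean CPM of at least 1 gave 1 osteoclast marker, and endothelial markers gave 1 with no filter and 0 with DESeq2. Genes called overall ran from 3835 to 5491; the cause of these moves was not tested. With the replicate block 5042 genes and 4 members passed. The deviations of same-numbered libraries correlated at -0.0735 across genes. With 2 libraries per group this compares a single difference in each group, so it cannot show whether a number marks a shared culture. No pairing was assumed. Shares scaled by length were not run, since transcript lengths were not used here. Low counts limit Grhl3, Ctsw, Cd74 and the untested markers.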
